A study of Mus musculus with 8 samples.

Results

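Related groups of mouse endogenous retroviruses were followed in newly made RNA: intracisternal A-type particles (IAP), the early transposons and their relatives (ETn and MusD), and the MMERVK10 elements with their RLTR10 long terminal repeats. The members were all repeat entries of the deposited table whose name begins with IAP, ETn, MMETn, MusD, RLTRETN, RLTR10 or MMERVK10. No measured value entered that rule, but it was set with earlier results of these data known. This gave 43 repeat types of 1039 in a table of 38971 entries. IAP supplied 25 types, 10 internal and 15 long terminal repeats, MMERVK10 and RLTR10 supplied 13 (3 internal and 10 terminal), and ETn and MusD supplied 5 (4 internal and 1 terminal). No entry is named MusD, although the MusD elements belong to the same retrovirus group as ETn. A repeat type sums reads over its copies in the genome, and the table gives it no position. All 43 types passed the filter on low values, a signal of at least 10 in at least 2 libraries.

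An endogenous retrovirus is a descendant of a virus that entered the germ line. It consists of an internal part, which in complete copies encodes viral proteins, between a pair of long terminal repeats (LTRs) that hold the promoter and the polyadenylation signal. Most copies in a genome are solitary LTRs, left after recombination between the ends. IAP and ETn are known for causing mutations in mice by new insertions. In embryonic stem cells they are kept silent by zinc finger proteins that recruit TRIM28 and the histone methyltransferase SETDB1, together with DNA methylation. YTHDC1 is the nuclear protein that binds N6-methyladenosine (m6A) in RNA, and loss of YTHDC1 in mouse embryonic stem cells is known to raise retrotransposon RNA.

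The study used a male stem cell model from mouse embryos in which Ythdc1 can be deleted, grown without feeders in serum and LIF. Cells received 4-hydroxytamoxifen (4OHT, the drug used to switch on an inducible recombinase, at 1 μg/ml) or its solvent DMSO for 4 days, and then 100 μM DRB for 3 h, which holds RNA polymerase II near promoters. DRB was washed out and new RNA was labelled with 1 mM 4-thiouridine (4sU) for 8 or 0 min, bound through its label and sequenced. The 4 groups were 4OHT at 8 min, DMSO at 8 min, 4OHT at 0 min and DMSO at 0 min, with 2 libraries each, called numbers 1 and 2 after the columns of the table. The recombinase, the deleted exons and the number of clones behind each line are not given in the sources used here. DRB and Ythdc1 conditional alleles were common to all 4 groups, and a library of 0 min had no labelling time and so holds RNA that bound without 8 min of label. Sample titles name ESC#2 for 8 min and ESC#1 for 0 min, while in the table numbers 1 and 2 occur under either time. Labelling time and cell line therefore cannot be told apart with certainty. Nothing states that numbers 1 and 2 were separate cultures, and p-values therefore measure only the spread between these libraries. In such bulk RNA, fewer cells that use a retrovirus and less RNA per cell cannot be told apart.

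The libraries held 118 M and 134 M reads with 4OHT at 8 min, 112 M and 93.1 M reads with DMSO at 8 min, 58.3 M and 57.6 M reads with 4OHT at 0 min, and 61.4 M and 46.3 M reads with DMSO at 0 min. The share of reads in repeats was 30.6% to 31.3% in the 8 min libraries, against 18.7% to 24.7% in those of 0 min. Gm26917, a non-coding transcript, held 2.67% to 3.92% in the 8 min libraries, against 23.2% to 27.7% in those of 0 min. At 0 min the libraries of number 2 stood apart from those of number 1, with 24.7% and 23.8% of reads in repeats against 18.9% and 18.7%, and 0.668% and 0.618% in spike-in RNAs against 0.101% and 0.120%. All 10 stem cell markers were detected in every library, and summed to 823 to 992 RPM (reads per M reads of the library) at 8 min and 1382 to 1505 at 0 min. The 8 fibroblast markers summed to 3.44 to 17.8 RPM, the 5 primitive endoderm markers to 9.12 to 14.2, and the 6 trophoblast markers to 8.56 to 47.3. Ythdc1 itself (chromosome 5, bases 86803980 to 86836659 of GRCm38.p6, the mm10 build) had 257 and 312 RPM with 4OHT at 8 min, against 372 and 435 with DMSO at 8 min. At 0 min it had 51.9 and 88.6 RPM with 4OHT, against 51.9 and 58.9 with DMSO. Reads outside a deleted exon stay countable in a conditional knockout, so this whole-gene value does not measure the deletion.

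Members are given as reads per 10000 repeat reads, which do not depend on how the authors scaled a library. Together the 43 types took 3.98% and 4.23% of all repeat reads with 4OHT at 8 min, against 3.24% and 3.17% with DMSO at 8 min. At 0 min they took 4.50% and 4.35% with 4OHT, against 4.44% and 4.09% with DMSO. The 3 families did not move together, as the plot of shares by family shows. ETn and MusD took 2.33% and 2.59% of repeat reads with 4OHT at 8 min, against 1.54% and 1.47% with DMSO at 8 min, a ratio of group means of 1.63. At 0 min the same family took 3.34% and 3.10% with 4OHT, against 3.32% and 2.89% with DMSO, and the libraries of the 2 treatments overlapped. IAP took 0.448% and 0.469% with 4OHT at 8 min, against 0.432% and 0.444% with DMSO at 8 min, and 0.694% and 0.672% with 4OHT at 0 min, against 0.685% and 0.676% with DMSO at 0 min. MMERVK10 and RLTR10 took 1.20% and 1.17% with 4OHT at 8 min, against 1.26% and 1.26% with DMSO at 8 min, and 0.464% and 0.577% with 4OHT at 0 min, against 0.436% and 0.529% with DMSO at 0 min. The libraries of 8 min thus did not overlap between treatments in any family, with group mean ratios of 1.63 for ETn and MusD, 1.05 for IAP and 0.939 for MMERVK10 and RLTR10. Such separation was common, since 32.6% of the 950 single repeat types tested lay above and 27.3% below without overlap. It therefore does not mark these families out. Each share was also taken without its most abundant entry. Without MMETn-int the other ETn entries still took 0.703% and 0.771% with 4OHT at 8 min, against 0.483% and 0.457% with DMSO. Without IAPEz-int the other IAP entries took 0.148% and 0.151% with 4OHT at 8 min, against 0.165% and 0.157% with DMSO, which turned the direction. The 95% Wilson interval of a family share reached at most 0.0106 percentage points to either side, for counting error only, since sequenced reads are not independent molecules.

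**Figure D1:**
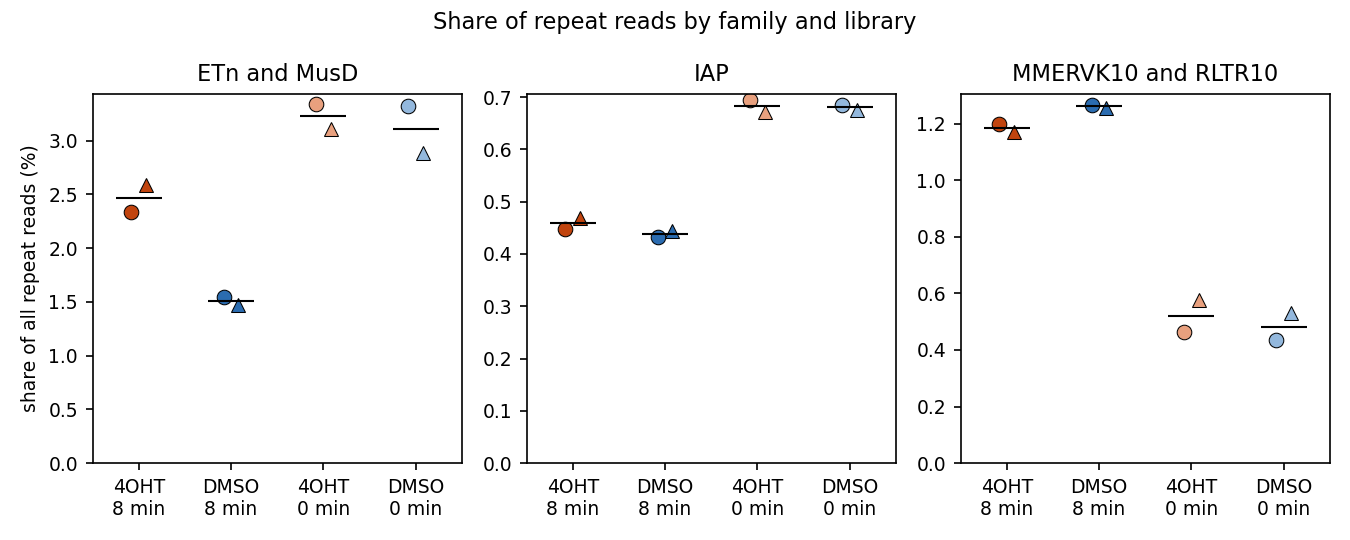
Share of all repeat reads (%, from 0) taken by each family in the 8 libraries. Circles are number 1, triangles number 2, and lines are group means; ETn and MusD stand at 2.33% and 2.59% with 4OHT at 8 min, against 1.54% and 1.47% with DMSO, and MMERVK10 and RLTR10 are lower at 0 min.

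With 4OHT at 8 min, 3 ETn types were the members that passed as higher once the libraries were put on a common scale, described further on. MMETn-int, the internal part of the non-coding early transposons, had 163 and 182 reads per 10000 repeat reads with 4OHT, against 106 and 102 with DMSO. ETnERV-int, a related internal entry of the same group, had 64.3 and 70.2 with 4OHT, against 42.0 and 39.3 with DMSO. RLTRETN_Mm, the LTR of this group, had 3.28 and 3.49 with 4OHT, against 2.71 and 2.57 with DMSO. In all 3 the libraries of 4OHT lay above both libraries of DMSO, as in 32.6% of the 950 repeat types tested. This adds no support, since the 3 were picked by a fit of these same libraries. At 0 min none of the 3 separated the treatments: MMETn-int had 232 and 213 with 4OHT, against 230 and 203 with DMSO, ETnERV-int had 92.9 and 86.2 against 92.1 and 76.4, and RLTRETN_Mm had 5.74 and 5.24 against 5.85 and 4.72.

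**Figure D2:**
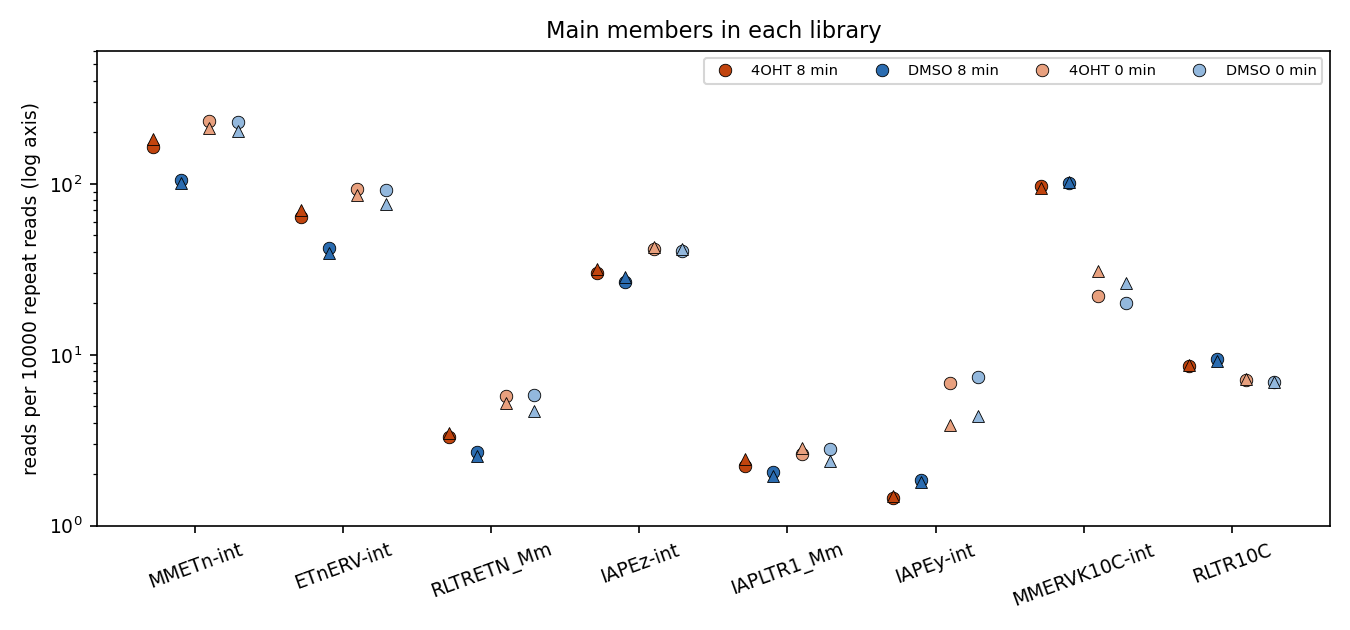
Reads per 10000 repeat reads (log axis) of 8 main members in each library; colours are the groups, circles number 1 and triangles number 2. MMETn-int, ETnERV-int and RLTRETN_Mm are higher with 4OHT than with DMSO at 8 min, and MMERVK10C-int is at 94.3 to 102 at 8 min under both treatments and between 20.1 and 30.9 at 0 min.

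The size of these changes depends on what they are set against. In the authors' scaling, the log2 fold change of 4OHT over DMSO at 8 min had a median of 1.42 over all repeat types and 1.43 over all genes. There, 14 of 43 members were higher and 0 lower by limma at an adjusted p of 0.05 (24 and 0 at an unadjusted p under 0.05), where 52.4% of the 950 repeat types tested and 56.4% of all entries were called higher (0% and 0.12% lower). The 14 comprised 10 IAP types, 2 ETn types (ETnERV-int, adjusted p = 0.0318, and RLTRETN_Mm, 0.0189) and 2 MMERVK10 or RLTR10 types, and MMETn-int missed the threshold (0.0532). All these member calls were lost without 4OHT 8 min number 2 or without DMSO 8 min number 1, as were most calls over all entries. Members had a median of 1.29, and 30 of 43 lay below the median repeat type. The relative change of a member is its log2 fold change less that median of repeat types. By relative change MMETn-int (0.73) ranked 4 and ETnERV-int (0.72) ranked 6 of 950 repeat types, and RLTRETN_Mm (0.35) ranked 48. The 4 libraries of 8 min were then put on a common scale by the median ratio of signal over genes that passed the filter. Only genes above 0 in all 4 libraries counted, and repeat types did not enter the scale. This is called the scaled fit here and was chosen after the data were seen. Its median log2 fold change was -0.04 over repeat types. In that fit 3 members were higher and 14 lower, against 2.21% of repeat types called higher and 8.53% called lower (17.6% and 16.4% of all entries).

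In the scaled fit MMETn-int was 1.60-fold higher with 4OHT (log2 0.68 ± 0.11 SE; limma adjusted p = 9.04e-05), ETnERV-int was 1.60-fold higher (0.68 ± 0.10; adjusted p = 3.29e-05) and RLTRETN_Mm was 1.24-fold higher (0.31 ± 0.10; adjusted p = 0.0216). edgeR called the same number higher, and DESeq2 called 4. The calls depended on the libraries that set the spread: with all 8 libraries scaled in one fit 0 members were called either way by limma (0 higher and 5 lower at an unadjusted p under 0.05), and the adjusted p was 0.659 for MMETn-int, 0.536 for ETnERV-int and 0.740 for RLTRETN_Mm, although their log2 changes stayed at 0.60, 0.59 and 0.23. Without 4OHT 8 min number 2 only ETnERV-int was still called (adjusted p = 0.0146; MMETn-int 0.0739 and RLTRETN_Mm 0.159), and without 4OHT 8 min number 1 RLTRETN_Mm lost its call (adjusted p = 0.0868). Over the settings tried on the common scale the adjusted p of MMETn-int ranged from 4.82e-12 to 0.659, that of ETnERV-int from 4.01e-12 to 0.536, and that of RLTRETN_Mm from 0.00751 to 0.740. Fewer members were called lower without 4OHT 8 min number 1, and a smaller share of all entries was as well. MMETn-int and ETnERV-int entries hold closely related sequence, and how the authors assigned reads that fit several copies is not given, so their 2 changes are not independent measurements.

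The other ETn internal parts did not follow. ETnERV2-int had 2.17 and 2.65 reads per 10000 repeat reads with 4OHT at 8 min, against 2.98 and 3.13 with DMSO, and was lower in the scaled fit (log2 -0.40 ± 0.11 SE; limma adjusted p = 0.00793). ETnERV3-int had 0.544 and 0.715 with 4OHT, against 0.693 and 0.693 with DMSO, and the libraries overlapped (log2 -0.20; adjusted p = 0.285). MMETn-int and ETnERV-int held most reads of the family. The ratio of internal to LTR reads of the ETn family was 70.1 and 73.2 with 4OHT at 8 min, against 56.0 and 56.2 with DMSO at 8 min. At 0 min this ratio was 57.2 and 58.2 with 4OHT, against 55.8 and 60.2 with DMSO. Thus the 4OHT libraries of 8 min stood apart from the other 6, which lay between 55.8 and 60.2.

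IAPEz-int, the internal part of the IAP elements known for recent insertions, was the IAP entry with most reads. It had 30.1 and 31.8 reads per 10000 repeat reads with 4OHT at 8 min, against 26.7 and 28.6 with DMSO at 8 min, and 41.4 and 42.5 with 4OHT at 0 min, against 40.5 and 41.6 with DMSO at 0 min. The 8 min libraries did not overlap, but the difference did not pass the scaled fit (log2 0.11 ± 0.10 SE; limma adjusted p = 0.414). Its LTR entry IAPLTR1_Mm had 2.24 and 2.46 with 4OHT at 8 min, against 2.06 and 1.94 with DMSO (log2 0.18; adjusted p = 0.203). IAPLTR2_Mm had 1.72 and 1.64 with 4OHT at 8 min, against 1.68 and 1.796 with DMSO, with the libraries overlapping (log2 -0.10; adjusted p = 0.511). No IAP type passed as higher in the scaled fit, and 7 of 25 passed as lower, 5 internal parts and 2 LTRs.

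Of the 7 lower IAP types 4 carry IAPE names, which other IAP types carry as well. Among those others, IAPEz-int and IAPEY3C_LTR had both 4OHT libraries above both DMSO libraries at 8 min. IAPEy-int had 1.46 and 1.49 reads per 10000 repeat reads with 4OHT at 8 min, against 1.84 and 1.802 with DMSO (log2 -0.36 ± 0.11 SE; limma adjusted p = 0.0135). IAPEY3-int had 1.10 and 1.17 with 4OHT, against 1.49 and 1.30 with DMSO (log2 -0.35; adjusted p = 0.0223). IAPEY_LTR had 0.436 and 0.415 with 4OHT, against 0.686 and 0.654 with DMSO (log2 -0.70; adjusted p = 0.000515). In all 3 both 4OHT libraries lay below both DMSO libraries, as in 27.3% of the 950 repeat types tested. This adds no support, since the 3 were picked by a fit of these same libraries. IAPLTR3-int, the internal part that goes with the IAPLTR3 repeat, had 427 and 353 reads (0.116 and 0.0861 per 10000) with 4OHT, against 766 and 447 reads (0.219 and 0.154 per 10000) with DMSO, and was lower by a log2 of -0.90 ± 0.23 SE (adjusted p = 0.00515, and 0.0585 without 4OHT 8 min number 2). IAPEY5_I-int rested on 99 and 163 reads with 4OHT, against 203 and 225 with DMSO (log2 -0.996 ± 0.33 SE; adjusted p = 0.0239). Its partner IAPEY5_LTR had 113 and 281 reads (0.0308 and 0.0685 per 10000) with 4OHT, against 206 and 195 (0.0589 and 0.0670 per 10000) with DMSO. IAPLTR3 had 196 and 308 reads (0.0534 and 0.0751 per 10000) with 4OHT, against 427 and 244 (0.122 and 0.0839 per 10000) with DMSO. Per 10000 repeat reads the libraries of IAPEY5_LTR overlapped and those of IAPLTR3 did not. Neither passed (limma adjusted p = 0.317 and 0.0564).

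Among MMERVK10 and RLTR10 types, none passed as higher in the scaled fit and 6 of 13 passed as lower. MMERVK10C-int, the internal part of the provirus flanked by RLTR10C and the entry with most reads of this family, had 97.7 and 94.3 reads per 10000 repeat reads with 4OHT at 8 min, against 101 and 102 with DMSO (log2 -0.13 ± 0.11 SE; limma adjusted p = 0.378). Its LTR RLTR10C had 8.63 and 8.76 with 4OHT, against 9.46 and 9.19 with DMSO (log2 -0.15; adjusted p = 0.222). RLTR10 had 3.05 and 3.10 with 4OHT, against 2.86 and 2.797 with DMSO (log2 0.07; adjusted p = 0.641), and RLTR10-int had 5.34 and 5.40 against 5.73 and 5.08 (log2 -0.06; adjusted p = 0.680). None of these 4 abundant entries passed the test in either direction, whereas rarer LTRs of the group did. RLTR10D2 had 332 and 482 reads (0.0904 and 0.118 per 10000) with 4OHT, against 1232 and 622 reads (0.352 and 0.214 per 10000) with DMSO, and was 2.69-fold lower (log2 -1.43 ± 0.23 SE; adjusted p = 6.19e-05). It ranked 2 from the bottom of 950 repeat types by relative change (-1.41). RLTR10A had 0.932 and 0.970 with 4OHT, against 1.35 and 1.09 with DMSO (log2 -0.40; adjusted p = 0.0145). RLTR10E had 0.601 and 0.573 with 4OHT, against 0.434 and 0.455 with DMSO, a difference that did not pass (log2 0.35; adjusted p = 0.0611). RLTR10B had 0.479 and 0.473 with 4OHT, against 0.553 and 0.525 with DMSO (log2 -0.23; adjusted p = 0.216).

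**Figure D3:**
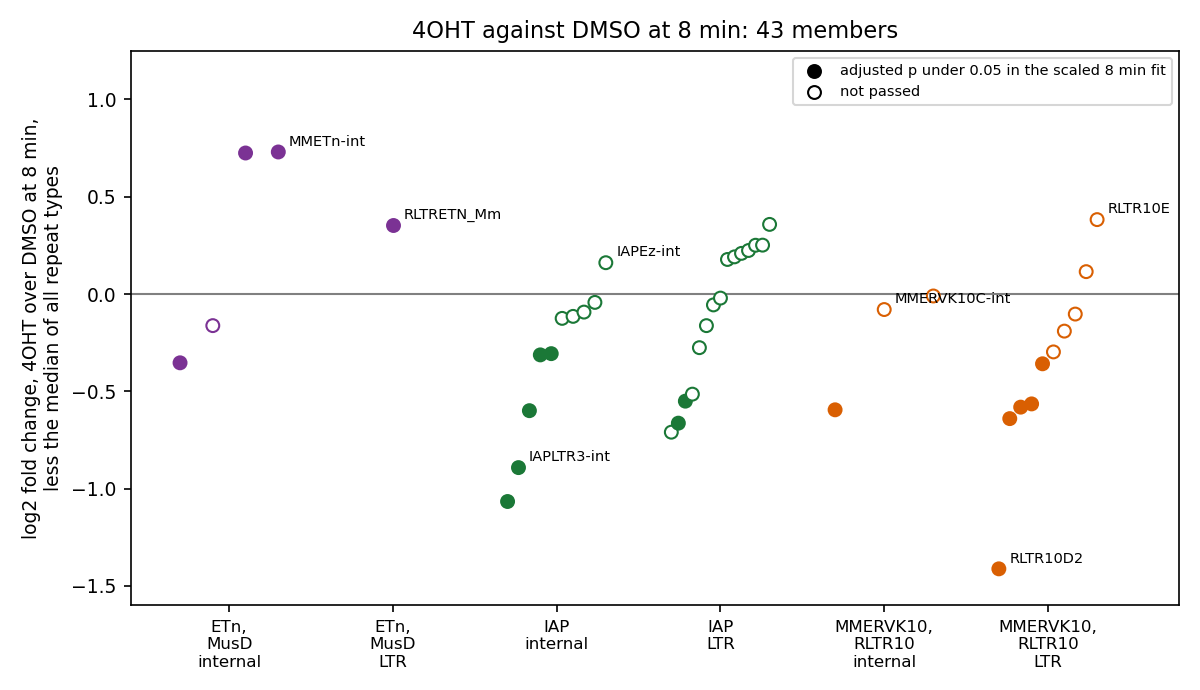
Relative log2 fold change of the 43 members at 8 min, 4OHT over DMSO, less the median of all repeat types (line at 0), by family and by internal part or LTR. Filled points passed the scaled fit of 8 min; MMETn-int and ETnERV-int lie at 0.73 and 0.72, and RLTR10D2 lies lowest at -1.41.

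Counted over all 43 members without a test, 12 had both 4OHT libraries above both DMSO libraries at 8 min and 22 had both below, where 32.6% of the 950 repeat types were above and 27.3% below. By family, 3 of 5 ETn types were above and 1 below, 7 of 25 IAP types were above and 11 below, and 2 of 13 MMERVK10 and RLTR10 types were above and 10 below. The 21 members that were not picked by the naming rule had relative changes of -0.64 to 0.36 at 8 min, and 7 of them passed as lower in the scaled fit. These 7, named after their values were seen, were ETnERV2-int, IAP-d-int, IAP1-MM_LTR, MMERVK10D3_I-int, MMERVK10D3_LTR, RLTR10B2 and RLTR10D. On the deposited scale none of the 14 members lower in the scaled fit passed as lower. The mean deposited signal of IAPEy-int was 613 with 4OHT and 284 with DMSO at 8 min, and that of IAPEY_LTR was 176 and 104. Such members were therefore lower only relative to the common scale or to all repeat reads.

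Other RNAs moved beside these values at 8 min. The share of Gm26917 was 3.26% and 2.67% with 4OHT, against 3.92% and 3.70% with DMSO. Summed trophoblast markers stood at 8.56 and 11.5 RPM with 4OHT, against 18.0 and 17.6 with DMSO, fibroblast markers at 3.44 and 5.03 against 7.17 and 9.22, primitive endoderm markers at 11.6 and 11.9 against 11.3 and 9.12, and stem cell markers at 823 and 824 against 992 and 874. Of the marker genes 1 fibroblast marker was at 0 in 1 library of each treatment, and 1 primitive endoderm marker was at 0 in 1 DMSO library. Their part in the lower members was not tested.

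At 0 min no member passed a test between 4OHT and DMSO. limma, edgeR and DESeq2 called 0 members higher and 0 lower, with 0 and 0 at an unadjusted p under 0.05, and 0% of all entries were called by limma in either direction on the deposited and the common scale. The median log2 fold change was 0.30 over members and 0.31 over repeat types on the deposited scale. It was -0.34 without 4OHT 0 min number 2 and 0.96 without 4OHT 0 min number 1. Set against the DMSO library of the same number, which was done after the data were seen and has no test, the median over members was 0.53 for number 2, with 40 of 43 above 0, and -0.00045 for number 1, with 21 above 0 and 22 below. Counted without a test, 4 members had both 4OHT libraries above both DMSO libraries and 5 had both below, where 8.32% and 4.95% of repeat types did. The 4 above were IAP-d-int, IAPLTR2a, RLTR10B and RLTR10C. RLTR10B had 0.616 and 0.632 reads per 10000 repeat reads with 4OHT at 0 min, against 0.428 and 0.401 with DMSO, and had the highest relative change of the members (0.54). RLTR10C had 7.08 and 7.24 with 4OHT at 0 min, against 6.89 and 6.89 with DMSO. RLTR10A had 1.66 and 2.27 with 4OHT, against 1.48 and 1.68 with DMSO, and ETnERV3-int had 1.49 and 2.98 against 1.63 and 1.71, both with overlapping libraries. At the low end, IAPEY5_LTR had 44 and 80 reads with 4OHT, against 90 and 151 with DMSO (relative -0.98), IAPLTR3 had 162 and 32 against 92 and 124 (-0.66), and IAPEY5_I-int had 41 and 131 against 56 and 198 (-0.62). These 3 rest on the fewest reads of the members named here.

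Between 8 and 0 min, MMERVK10C-int separated from the other members under both treatments. It had 97.7 and 94.3 reads per 10000 repeat reads with 4OHT at 8 min, against 22.1 and 30.9 with 4OHT at 0 min, and 101 and 102 with DMSO at 8 min, against 20.1 and 26.3 with DMSO at 0 min. By relative change it ranked 6 of 950 repeat types with 4OHT (1.81) and 3 of 950 with DMSO (2.07). In scaled fits of the 4 libraries of a treatment it was 3.54-fold higher at 8 min with 4OHT (log2 1.82 ± 0.44 SE; limma adjusted p = 0.0207) and 4.67-fold higher with DMSO (log2 2.22 ± 0.42 SE; adjusted p = 0.00661). RLTR10C, the LTR that flanks it, moved far less. It had 8.63 and 8.76 with 4OHT at 8 min, against 7.08 and 7.24 at 0 min (log2 0.22; adjusted p = 0.498), and 9.46 and 9.19 with DMSO at 8 min, against 6.89 and 6.89 at 0 min (log2 0.52; adjusted p = 0.132). Reads of MMERVK10C-int over reads of RLTR10C were therefore 11.3 and 10.8 with 4OHT at 8 min, against 3.12 and 4.26 at 0 min, and 10.6 and 11.1 with DMSO at 8 min, against 2.91 and 3.81 at 0 min. Over the whole MMERVK10 and RLTR10 family the internal to LTR ratio was 6.61 and 6.22 with 4OHT at 8 min, against 1.77 and 2.10 at 0 min, and 5.94 and 6.30 with DMSO at 8 min, against 1.70 and 2.03 at 0 min.

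Most other members took a smaller share of repeat reads at 8 min than at 0 min. Relative to the median repeat type, members had a median change of -0.54 with 4OHT and -0.52 with DMSO, with 36 of 43 and 34 of 43 below it. On the deposited scale 35 members passed as higher with 4OHT and 9 with DMSO, and 0 as lower in both (limma; 0 lower at an unadjusted p under 0.05 too), where 93.5% and 45.3% of repeat types passed as higher. Over all entries 74.7% passed as higher and 0.781% as lower with 4OHT, and 46.4% and 1.81% with DMSO. The 35 became fewer without 4OHT 8 min number 2 or without 4OHT 0 min number 1. The 9 became fewer without DMSO 8 min number 2 or without DMSO 0 min number 1. In each of these fits the share of all entries called higher fell as well. In the scaled fit with 4OHT, 1 member was higher and 11 lower, where 5.89% of repeat types were called higher and 7.05% lower (25.9% and 24.3% of all entries). In the scaled fit with DMSO, 2 were higher and 7 lower, where 10.5% were called higher and 6.11% lower (29% and 25% of all entries). Without a test, 7 members lay above in both libraries and 29 below with 4OHT, where 39.4% and 30.6% of repeat types did. With DMSO 8 lay above and 27 below, where 39.9% and 26.4% did. The second higher member with DMSO was IAPEY_LTR, with 0.686 and 0.654 reads per 10000 at 8 min, against 0.233 and 0.324 at 0 min (log2 1.33 ± 0.35 SE; adjusted p = 0.0202). With 4OHT it had 0.436 and 0.415 at 8 min, against 0.267 and 0.342 at 0 min, and did not pass (log2 0.43; adjusted p = 0.330).

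The counts of the scaled fits depended on which libraries were left to set the spread. Without 1 library, only the group that kept both of its libraries gave a spread. Without 4OHT 8 min number 1 or number 2, limma called 0 members and 0 of all entries in the 4OHT comparison (0 members higher and 4 lower at an unadjusted p under 0.05 in each case), and without DMSO 8 min number 1 or number 2 it likewise called 0 in the DMSO comparison (0 higher, and 2 or 3 lower, at an unadjusted p under 0.05). Without 4OHT 0 min number 1 it called 3 higher and 31 lower, where 15.9% of repeat types were called higher and 51.1% lower (40% and 39.2% of all entries). Without 4OHT 0 min number 2 it called 5 and 22, where 51.4% and 17.9% of repeat types were called (41.6% and 38.9% of all entries). Without DMSO 0 min number 1 it called 3 higher and 29 lower, where 15.2% and 33.9% of repeat types were called (39.1% and 36.5% of all entries). Without DMSO 0 min number 2 it called 10 and 11, where 55.9% and 10.4% of repeat types were called (40.1% and 36.6% of all entries). The log2 change of MMERVK10C-int stayed between 1.38 and 2.20 with 4OHT and between 1.802 and 2.57 with DMSO in these fits. Its adjusted p was 0.324 to 0.356 with 4OHT, and 0.187 to 0.205 with DMSO, without a library of 8 min.

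Among the members whose share of repeat reads fell most were internal parts of IAP types. These falls are in the share of repeat reads. On the deposited scale 0 members passed as lower, which does not show that no signal fell. There the mean signal of IAPEy-int was 613 at 8 min and 383 at 0 min with 4OHT, and 284 and 342 with DMSO. IAPEy-int had 1.46 and 1.49 reads per 10000 repeat reads with 4OHT at 8 min, against 6.86 and 3.88 at 0 min, and 1.84 and 1.802 with DMSO at 8 min, against 7.36 and 4.41 at 0 min. In the scaled fits it was 3.63-fold lower at 8 min with 4OHT (log2 -1.86 ± 0.25 SE; limma adjusted p = 0.00481) and 2.95-fold lower with DMSO (log2 -1.56 ± 0.23 SE; adjusted p = 0.00305). IAPEY3-int had 1.10 and 1.17 with 4OHT at 8 min, against 4.49 and 3.25 at 0 min, and 1.49 and 1.30 with DMSO at 8 min, against 4.52 and 3.81 at 0 min. Its log2 change was -1.81 with 4OHT (adjusted p = 0.00398) and -1.49 with DMSO (adjusted p = 0.00304). IAPLTR3-int had 0.116 and 0.0861 with 4OHT at 8 min, against 0.624 and 0.478 at 0 min (log2 -2.43; adjusted p = 0.00457), and 0.219 and 0.154 with DMSO at 8 min, against 0.475 and 0.523 at 0 min (log2 -1.31; adjusted p = 0.0183). With 4OHT it ranked 3 from the bottom of 950 repeat types (relative -2.52). ETnERV3-int had a log2 change of -1.81 with 4OHT (adjusted p = 0.0272) and -1.18 with DMSO (adjusted p = 0.0108), and RLTRETN_Mm of -0.75 (adjusted p = 0.0399) and -0.91 (adjusted p = 0.0131).

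MMETn-int and ETnERV-int took a smaller share at 8 min than at 0 min as well. The relative change of MMETn-int was -0.43 with 4OHT and -1.13 with DMSO, and that of ETnERV-int was -0.48 and -1.11. Neither passed in the scaled fits, with log2 changes of -0.42 (limma adjusted p = 0.581) and -0.98 (adjusted p = 0.168) for MMETn-int and of -0.47 (adjusted p = 0.392) and -0.97 (adjusted p = 0.0705) for ETnERV-int. For IAPEz-int the log2 change was -0.49 with 4OHT (adjusted p = 0.278) and -0.49 with DMSO (adjusted p = 0.267). The Gm26917 share, lower in all libraries of 8 min than in any of 0 min, stood beside these values, and its part in them was not tested.

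**Figure D4:**
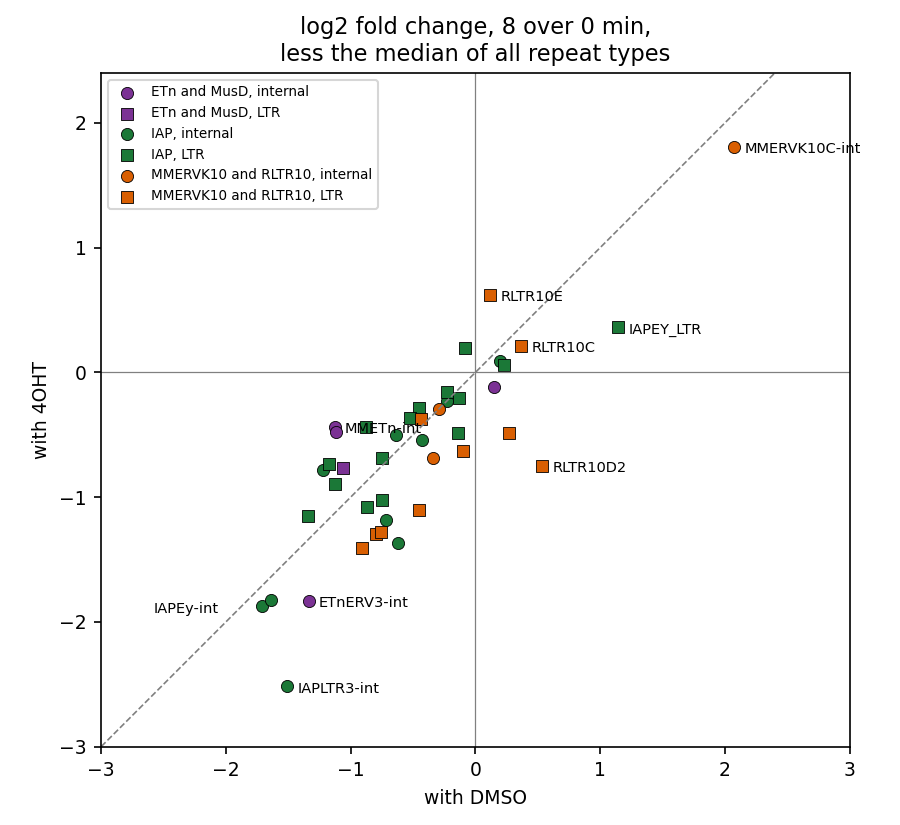
Relative log2 fold change of the 43 members, 8 over 0 min, with 4OHT (vertical) against DMSO (horizontal); circles are internal parts, squares LTRs, and the dashed line marks equal values. MMERVK10C-int lies at 1.81 and 2.07, apart from all others, and IAPLTR3-int lies lowest with 4OHT at -2.52.

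Whether the effect of 4OHT differed between 8 and 0 min was tested as an interaction. With the deposited values, limma called 0 members in either direction (0 and 0 at an unadjusted p under 0.05), where 0.346% of all entries were called higher, and on the common scale of all 8 libraries it called 0 and 0 as well (0 and 4 at an unadjusted p under 0.05). edgeR called 0 members (0 and 4 at an unadjusted p under 0.05), as did DESeq2 (1 and 4). MMETn-int and ETnERV-int had the highest relative values of the members, 0.71 and 0.66, with adjusted p of 0.381 and 0.360 on the deposited scale and 0.958 and 0.944 on the common scale. The lowest were RLTR10D2 (-1.26; adjusted p = 0.795 on the common scale), IAPLTR3-int (-0.99; 0.820) and IAPEY_LTR (-0.76; 0.890). IAP-d-int, RLTR10B and RLTR10C had 4OHT libraries above DMSO at 0 min and below DMSO at 8 min, and none passed this test. A 4OHT effect on ETn particular to 8 min was therefore not shown by these libraries.

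Internal parts were set against LTRs in 13 pairs, formed after values were seen. In 9 pairs both names share a stem. The other 4, which were IAPEz-int with IAPLTR1_Mm, MMERVK10C-int with RLTR10C, and MMETn-int and ETnERV-int each with RLTRETN_Mm, were not matched by name. At 8 min the internal part had the higher relative 4OHT change in 5 pairs and the LTR in 8, and at 0 min the counts were 6 and 7. The largest contrasts lay between labelling times. With DMSO IAPEy-int had a relative change of -1.71 and IAPEY_LTR of 1.14, and with 4OHT they had -1.88 and 0.36. Reads of IAPEy-int over reads of IAPEY_LTR were 3.34 and 3.58 with 4OHT at 8 min, against 25.7 and 11.3 at 0 min, and 2.68 and 2.76 with DMSO at 8 min, against 31.7 and 13.6 at 0 min. With DMSO IAPEY3-int had -1.64 and IAPEY3_LTR -0.14, and IAPLTR3-int had -1.51 and IAPLTR3 -0.13. For MMERVK10C-int and RLTR10C the order was the other way, with 2.07 for the internal part and 0.37 for the LTR. By contrast IAPEz-int and IAPLTR1_Mm stayed close, at -0.64 and -0.45.

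Of the proteins that silence these retroviruses, 35 of 37 listed genes were tested at 8 min. In the scaled fit 4 were higher with 4OHT, 6 lower and 25 did not pass, where 17.6% of all entries were called higher and 16.4% lower. With the deposited values 20 passed as higher and 0 as lower, where 56.4% of all entries passed as higher and 0.12% as lower. Zfp809, which encodes a zinc finger protein that targets TRIM28 to proviral primer binding sites, was higher by a log2 of 0.61 ± 0.11 SE (limma adjusted p = 0.000217). Gm15446, a zinc finger gene related to Zfp932, both known to repress endogenous retroviruses, was higher by 0.59 (adjusted p = 0.000730), and Dnmt3a, a de novo DNA methyltransferase, by 0.52 (adjusted p = 0.00422). The lower genes, named after their values were seen, included Uhrf1, which recruits maintenance DNA methylation (log2 -0.89; adjusted p = 8.53e-06), Cbx3 (-0.49; adjusted p = 0.000948) and Cbx1 (-0.43; adjusted p = 0.00249), which encode heterochromatin proteins, and Trim28, the shared corepressor (-0.37; adjusted p = 0.00656). Setdb1, also named after its value was seen, did not pass (log2 -0.17; adjusted p = 0.233). At 0 min none of the 35 passed in limma.

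Of 15 genes of the m6A pathway, 1 was higher with 4OHT at 8 min in the scaled fit, 2 were lower and 12 did not pass, where 17.6% of all entries were called higher and 16.4% lower. Of those named here, Virma, Rbm15b and Mettl3 were chosen after their values were seen. Virma, a subunit of the m6A methyltransferase complex, was higher (log2 0.34 ± 0.11 SE; limma adjusted p = 0.0192). Rbm15b, which guides that complex to RNA, was lower (log2 -0.72; adjusted p = 0.000202), as was Ythdc1 (log2 -0.53 ± 0.11 SE; adjusted p = 0.000918). Mettl3, the catalytic subunit, had a log2 change of 0.14 (adjusted p = 0.423).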

How the data were processed

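The authors deposited 1 table of signal values for genes, repeat types, structural RNAs and spike-ins. The mm10 build, Bowtie2, STAR 2.7 and bcl2fastq are named per the submitters' processing notes. Their roles, the repeat annotation, the strand counted, the treatment of multiply mapped reads and the meaning of the scaling are not given in the sources used here. In every library 100% of deposited signal values were whole reads (within 0.01) divided by 1 number, 8.095 to 29.49 by library, so reads were recovered. Columns that name no treatment were taken as DMSO. Entries with signal of at least 10 in at least 2 of 8 libraries were kept (21652 in all, 20657 genes and 950 repeat types). limma 3.58.1 in R 4.3.3 (trended, two-sided) fitted log2(signal + 1) over 4 groups of 2, adjusted by Benjamini-Hochberg over all entries. Fold changes on this scale understate changes of low entries. Scaled fits of the 4 libraries were added after the data were seen. Alternatives included median-ratio scaling of the 4 or 8 libraries, spike-in scaling, other pseudocounts, no filter, a replicate block, leaving out each library, edgeR 4.0.16 and DESeq2 1.42.0. Simulated counts were put through the unscaled limma fit only, and not through the scaled fits, edgeR or DESeq2. Deviations of libraries of the same number correlated at 0.02 to 0.48, not above 0.1 for every pair of groups, so the numbers were not taken as pairs in the main fit. The highest value, 0.48, was that of 4OHT and DMSO at 0 min.

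Members given by library were the 2 of highest mean signal in each family and part, and for each comparison the 3 of largest positive and 3 of largest negative relative change. Of the silencing list, the 3 of smallest p at 8 min on the deposited scale were named. Other genes of that list and of the m6A list, except Ythdc1, were named after their values were seen. Members and lists were chosen with earlier results of these data known. Sequences of the repeat types were not used here.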

Additional observations from a re-analysis of the deposited data

How the results depend on the processing

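At 8 min, 14 members passed as higher on the deposited scale, against 22 with a pseudocount of 5 and 1 with no filter. None did with p adjusted over repeat types alone, with median-ratio scaling of 8 libraries or with spike-in scaling. Of all entries, 56.4% passed as higher as deposited, 67.7% with a pseudocount of 5 and 14.4% with no filter. With 8 libraries scaled it was 0.00924% of all entries, with spike-ins 0.125%, and with p adjusted over repeat types alone 0% of repeat types. The scaled fit of 4 libraries gave 3 higher and 14 lower, edgeR 3 and 14, and DESeq2 4 and 14. Scaling all 8 libraries gave 0 and 0. Of repeat types, these called 2.21% higher and 8.53% lower, 2.11% and 8.74%, 2.42% and 9.05%, and 0% and 0%. The median over members, 1.29 as deposited, was -0.25 with 8 libraries scaled, -0.042 by spike-ins, and -0.17 in the scaled fit, edgeR and DESeq2. For 8 against 0 min with 4OHT, scaling 8 libraries gave 1 higher and 12 lower with a median of -0.49. The scaled fit gave 1 and 11 with -0.52, edgeR 1 and 13 with -0.56, DESeq2 1 and 14 with -0.57, and spike-ins 7 higher with 2.62. In the same order 8%, 5.89%, 5.47%, 6.95% and 52.4% of repeat types were higher, and 8.53%, 7.05%, 7.68%, 11.1% and 0% lower. With DMSO scaling 8 libraries gave 2 and 10 with -0.34, and the scaled fit 2 and 7 with -0.35. There edgeR gave 2 and 9 with -0.40, DESeq2 2 and 10 with -0.39, no filter 5 higher, and spike-ins a median of 2.74. In this order 11.6%, 10.5%, 9.68%, 14%, 17.6% and 52.1% of repeat types were higher, and 6.42%, 6.11%, 6.84%, 8.74%, 0% and 0% lower. The difference of effects had a median of -0.26 with 8 libraries scaled, -0.19 by spike-ins, -0.20 by edgeR and -0.25 by DESeq2. The cause of these shifts was not tested.

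With the replicate number as a block, 36 members passed as higher at 8 min, where 83.5% of all entries did, 23 for 8 against 0 min with DMSO, where 58% did, and 9 for the difference, where 29.7% did. Deviations of same-numbered libraries correlated at 0.02 to 0.48 between groups, so not every pair of groups exceeded 0.1 and the numbers are not shown to pair the libraries. The 0.48 was that of 4OHT and DMSO at 0 min, a pairing that the main fit ignored. With the block 0 members and 0% of all entries passed in that comparison (limma, 1 member higher and 0 lower at an unadjusted p under 0.05). With median-ratio scaling and the replicate block, 0 passed at 8 min (median -0.25), 2 higher and 15 lower over time with 4OHT (-0.49), 3 and 11 with DMSO (-0.34), and the difference had a median of -0.26.

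Leaving out 1 library at a time, the number of members higher at 8 min was 0 to 24 (median 0.91 to 1.63), with 1 to 3 higher and 8 to 14 lower in the scaled fit. At 0 min 0 passed in either direction, with a median of -0.34 to 0.96. Over time with 4OHT 16 to 40 were higher (median 1.37 to 2.59), and the scaled fit gave 0 to 5 higher and 0 to 31 lower. With DMSO 2 to 12 were higher (median 0.49 to 1.20), and the scaled fit gave 0 to 10 and 0 to 29. The difference had a median of 0.43 to 1.69, or -0.20 to 0.11 relative to repeat types. Over time with 4OHT the relative change of IAPEY5_LTR was -0.95 to 0.077 and that of IAPLTR3 was -1.55 to 1.17, and IAPLTR3 in the scaled fit was -1.07 without 4OHT 0 min number 2. These entries rest on few reads.

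Without the member of most reads, the 4OHT over DMSO ratio of shares at 8 min was 1.10 for all members, 0.925 for IAP and 0.906 for MMERVK10 and RLTR10, and 0.977 for IAP at 0 min. The same ratio for internal over LTR reads at 8 min was 1.15 for all members, 0.812 for IAP and 1.23 for ETn and MusD, and 0.908 for MMERVK10 and RLTR10 at 0 min. Of relative changes of single members, 2016 of the values under alternatives moved by less than the spread of replicates and 137 by more. Another 3, of members called on the deposited scale, changed direction. For members not called there, a change of direction was not counted as such. Some alternatives, such as another adjustment of p or leaving out a library of another group, cannot move a relative change. The 2016 is therefore no measure of stability.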
